A study of Drosophila melanogaster with 2 samples.

Results

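In embryos carrying GFP-tagged CG8281, 634 strong binding peaks of replicate 1 had no strong counterpart in replicate 2. They were chosen by measured values: the peaks of each replicate were sorted by the deposited signal, and a peak was a member when it was strong in replicate 1, meaning a signal of at least 57.76, and shared no base with any replicate 2 peak whose signal reached 45.12. The replicate 1 list held 30000 peaks in all, and the members made up 16.2% of its strong peaks. The other 3287 strong replicate 1 peaks, called shared here, overlapped a strong replicate 2 peak, and a mirrored set of 600 peaks was picked from replicate 2 by the same ranks, with the replicates exchanged. Ranks, signals and presence in replicate 2 are therefore properties of the choice and are given as a description only.

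Chromatin immunoprecipitation followed by sequencing was done on whole Drosophila melanogaster embryos collected at 0 to 20 hours, from a transgenic line that stably expresses CG8281 with GFP at its C-terminal end, using an antibody against GFP. The 2 samples, biological replicates 1 and 2, formed 1 group. No untagged group was used here, each replicate list was called against 1 control alignment, and embryos of all cell types and of a broad age range were combined. The protein measured is the tagged form, from 1 transgenic line. With 1 sample on either side, no test between the replicates can be made, and peaks of a sample are not replicates of it. Read depth is unknown from peak lists, and its part in the results was not tested. Intervals are exact Clopper-Pearson 95% intervals and cover counting error only.

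CG8281 belongs to the MADF-BESS type of proteins, a fly family of DNA-binding factors related to Adf1. A peak marks where fragments carrying the tagged protein piled up, and its summit is the highest point of that pile. A promoter is the stretch next to a transcription start site (TSS), where general factors open the chromatin and RNA polymerase starts. In the compact fly genome many genes lie head to head, and such a divergent pair shares 1 stretch of open chromatin between its start sites.

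The sequence at the summits of the strongest members is shown first, because these places carried the largest replicate 1 signals that had no strong replicate 2 counterpart. The 6 strongest members on arms 2L, 3L, 3R, X and 4 whose window held no untranslated region are given as 151 bases centred on the summit, from the RefSeq sequence of dm6, plus strand, 5′ to 3′. Capitals mark runs of at least 8 bases made of A and T only. The windows are chr3R:23758105-23758255 for PTPMT1, chr2L:13387370-13387520 for CG7099, chrX:655071-655221 for Hmt4-20, chr3R:8001386-8001536 for CG2698, chr2L:4977145-4977295 for CG3792 and chr3R:16222102-16222252 for tara.
PTPMT1: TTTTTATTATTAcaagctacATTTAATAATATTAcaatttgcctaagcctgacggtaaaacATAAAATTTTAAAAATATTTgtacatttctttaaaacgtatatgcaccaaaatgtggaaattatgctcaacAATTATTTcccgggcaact
CG7099: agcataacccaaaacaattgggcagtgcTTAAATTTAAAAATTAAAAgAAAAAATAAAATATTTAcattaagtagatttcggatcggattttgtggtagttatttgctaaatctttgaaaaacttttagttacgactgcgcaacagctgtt
Hmt4-20: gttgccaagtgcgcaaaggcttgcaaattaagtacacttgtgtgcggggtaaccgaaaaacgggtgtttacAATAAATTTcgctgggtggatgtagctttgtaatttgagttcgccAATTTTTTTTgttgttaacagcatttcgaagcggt
CG2698: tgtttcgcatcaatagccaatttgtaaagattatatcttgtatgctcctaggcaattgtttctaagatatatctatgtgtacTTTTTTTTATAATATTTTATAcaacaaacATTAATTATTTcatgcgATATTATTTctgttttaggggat
CG3792: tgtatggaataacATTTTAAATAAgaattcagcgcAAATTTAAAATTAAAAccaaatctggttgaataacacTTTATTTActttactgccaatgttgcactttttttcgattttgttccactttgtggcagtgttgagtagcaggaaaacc
tara: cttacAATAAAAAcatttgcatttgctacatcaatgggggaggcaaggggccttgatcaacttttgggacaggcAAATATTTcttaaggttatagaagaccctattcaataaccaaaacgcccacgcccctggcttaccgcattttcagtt
The PTPMT1 window had 54 of 151 bases in such runs and a GC content of 26.5%, and the CG2698 window had 41 bases and 25.8%. The tara summit was intergenic, 3474 bp upstream of the nearest start site, while the others lay at promoters. The Hmt4-20 and tara windows were less A/T-rich, with 19 and 16 bases in capitals and GC contents of 41.7% and 42.4%. The 6 windows thus had no uniform base composition.

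For contrast, 2 shared peaks are given in the same way. They are the strongest shared peaks on the same arms with no untranslated region in the window and at least 16 bases covered by the words of 8 bases that were lowest in members, chosen after seeing the data. Capitals mark those words. The windows are chr3L:5976708-5976858, whose nearest start site is that of CG10479, and chr3L:8865176-8865326, nearest to CG43169.
CG10479: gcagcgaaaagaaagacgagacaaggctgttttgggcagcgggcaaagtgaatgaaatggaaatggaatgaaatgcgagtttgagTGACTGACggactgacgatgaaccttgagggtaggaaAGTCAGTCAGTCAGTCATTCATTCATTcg
CG43169: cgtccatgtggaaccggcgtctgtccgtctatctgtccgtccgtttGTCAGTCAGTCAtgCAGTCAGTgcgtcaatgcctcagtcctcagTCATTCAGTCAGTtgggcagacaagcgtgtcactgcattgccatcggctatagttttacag
The CG10479 peak had rank 5 in replicate 1 and rank 2 in replicate 2, and the CG43169 peak had rank 6 and rank 3. In both windows the capitals held a 4-base repeat, with CAGT read over and over.

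The strongest member lay 159 bp upstream of the start site of PTPMT1, which encodes a mitochondrial phosphatase of cardiolipin synthesis, with Hrd3, a component of the ubiquitin ligase that clears misfolded proteins of the endoplasmic reticulum, also within 500 bp. Its replicate 1 signal was 599.2, rank 185, and no peak of the 30000 in replicate 2 overlapped it. The next members were at GstE13, a glutathione S-transferase, with a signal of 437.5, at PIG-G, of the pathway that builds glycosylphosphatidylinositol membrane anchors, with 401.1, and at Gmppa, which is involved in making GDP-mannose, with 291.5. CG7099 had 291.2. A member with a signal of 285.4 lay 542 bp from the nearest protein-coding start site, that of Boot, and 73 bp upstream of Uhg4, a host gene of small nucleolar RNAs.

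The rest of the 12 strongest were at swm, an RNA-binding zinc finger protein (280.7), Hmt4-20, the histone H4 lysine methyltransferase (278.6), PIG-Q, of the same anchor pathway (270.6), bgcn, a partner of bam in germ cell differentiation (260.6), tzn (256.3) and CG2698 (252.9). U2af50, the large subunit of a splicing factor that binds the end of introns, was within 500 bp of the PIG-Q summit. None of the 12 overlapped any replicate 2 peak, and 11 of the 12 lay within 500 bp of a protein-coding start site. All 12 overlapped the optimal list, with ranks from 272 to 995 among the pooled peaks.

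Over all 634 members the replicate 1 signal ran from 57.8 to 599, with a median of 76.5, against a median of 116 in shared peaks. Their replicate 1 ranks lay between 185 and 3914, with a median of 2860, so members sat mostly in the weaker part of the strong peaks. In 4 rank ranges of nearly equal size they made up 3.16%, 11.6%, 19.5% and 30.4% of the peaks, from the strongest range to the weakest. Their −log10 q, as deposited, lay between 2.61 and 3.84, and 91.3% of them had the same width of 424 bp.

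Of the 634 members, 272 (42.9%, 39.0 to 46.9%) overlapped some weaker replicate 2 peak and 362 overlapped none, while 90.8% of all strong replicate 1 peaks overlapped a replicate 2 peak. The best replicate 2 rank of those 272 lay between 7869 and 27622, the median being 11453.5. Their replicate 2 signal lay between 17.51 and 44.98. The members with no replicate 2 peak were the stronger ones in replicate 1, with a median signal of 89.4 against 68.5 in members with one. In the upper ranks, the stronger 2 of those 4 ranges, 22 of 145 members (15.2%) had a replicate 2 peak, and in the lower ranks, the other 2 ranges, 250 of 489 (51.1%) had one. In the mirrored set, 370 of 600 (61.7%) overlapped some replicate 1 peak.

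**Figure D1:**
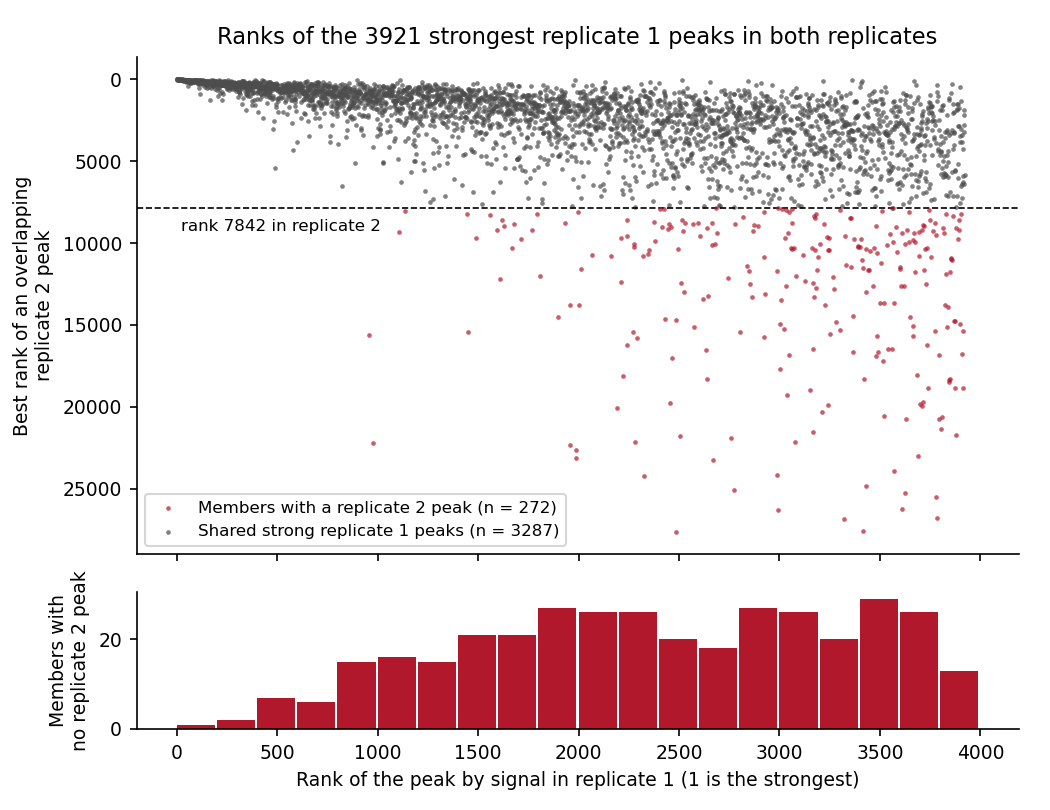
Each point is a strong replicate 1 peak, placed by its replicate 1 rank and by the best rank of a replicate 2 peak that overlaps it (upper panel); the bars count the 362 members with no overlapping replicate 2 peak per 200 replicate 1 ranks (lower panel). Members with a replicate 2 peak lie below the dashed line at the replicate 2 threshold and are sparse among the strongest replicate 1 peaks.

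At the replicate 1 threshold, the last members inside were at siz, an exchange factor for Arf GTPases, with a signal of 57.94, at CG32523 with 57.87 and at dan, a nuclear protein of antenna and eye development, with 57.84. The first peaks outside it were at SNF4Agamma, a subunit of AMP-activated protein kinase, with 57.71, at cer with 57.66 and at CG4970 with 57.65. At the replicate 2 threshold, the closest members were at CG12643, Eip63E, a cyclin-dependent kinase, and CrebA, a transcription factor of secretory genes, whose replicate 2 peaks had ranks 7869, 7879 and 7886 and signals of 44.98, 44.95 and 44.92. Just on the other side were shared peaks at CG2493, fbp, fructose-1,6-bisphosphatase, and Snoo, with ranks 7833, 7811 and 7789 and signals of 45.14, 45.22 and 45.31. Both thresholds thus cut through closely spaced values.

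Members overlapped the pooled and optimal lists less often than shared peaks did. The optimal list was derived from the replicate and pooled lists by the irreproducible discovery rate, and it was identical in positions and signals to the strongest peaks of the pooled list. Both lists contain the reads that the choice rests on, so these shares are a description. The optimal list held 209 of the 634 members (33.0%, 29.3 to 36.8%), against 3113 of 3287 shared peaks (94.7%), and 84.7% of all strong replicate 1 peaks. Of those 209 members, 148 had no peak at all in replicate 2. In the mirrored set, 38 peaks were in the optimal list with none in replicate 1, of 139 in the list.

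In the pooled list, 271 of the 272 members with a replicate 2 peak were found, but 211 of the 362 members without one (58.3%, 53.0 to 63.4%). Of the 230 mirrored peaks with no replicate 1 peak, 207 (90.0%, 85.4 to 93.6%) were in the pooled list. The 152 members missing from the pooled list had replicate 1 signals up to 226.7, the highest being the CG3792 peak shown above, between the start sites of CG3792 and Gmd, a GDP-mannose dehydratase. Of these 152, 134 (88.2%) lay at promoters.

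Members lay at promoters more often than either other set. The summit was within 500 bp of a protein-coding start site in 402 of 634 members (63.4%, 59.5 to 67.2%), in 1178 of 3287 shared peaks (35.8%, 34.2 to 37.5%) and in 145 of 600 mirrored peaks (24.2%, 20.8 to 27.8%). With a replicate 1 list as deep as that of replicate 2 the share was 40.3% in members and 31.8% in shared peaks, and when non-overlapping replicate 1 peaks were taken up to the size of the strong list it was 35% in members and 28.8% in shared peaks. Promoters so defined cover 11.2% of the chromosome arms. Introns held 22.6% of member summits, 44.3% of shared and 47.5% of mirrored summits, and intergenic sequence held 10.1% of member, 16% of shared and 21.3% of mirrored summits. Coding sequence outside promoters held 3 member summits (0.473%), at CG34268, par-1 and sgg. It held 6 shared summits (0.183%) and 1 mirrored summit (0.167%), while that class covers 13.6% of the arms.

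**Figure D2:**
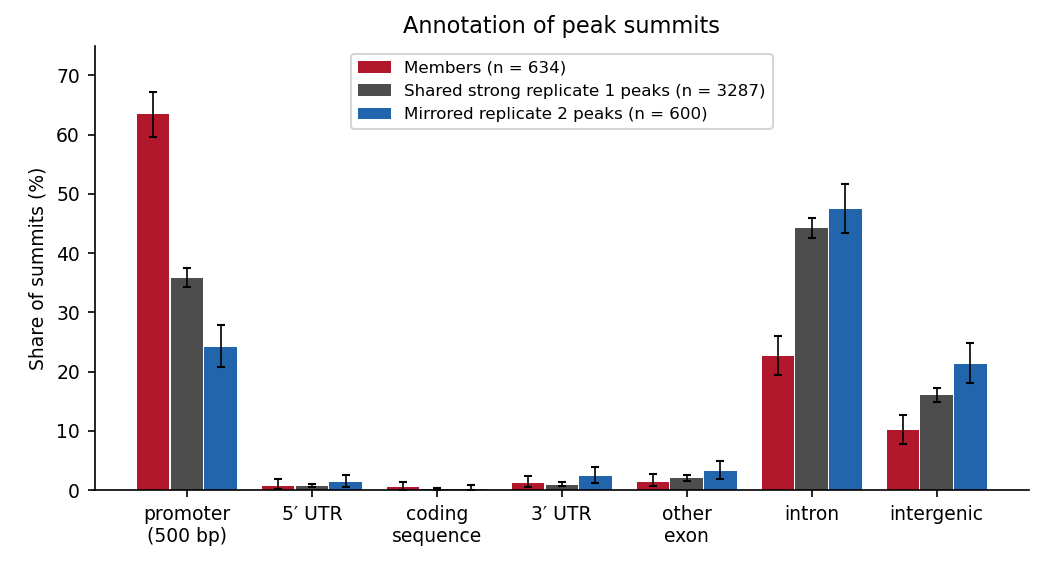
Share of peak summits in each annotation class, in percent, for members, shared strong replicate 1 peaks and mirrored replicate 2 peaks; error bars are exact 95% intervals. The promoter bar is 63.4% for members and below 36% for both other sets.

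The promoter share was high in the members without a replicate 2 peak and not in the others. It was 299 of 362 (82.6%, 78.3 to 86.4%) in members without a replicate 2 peak and 103 of 272 (37.9%, 32.1 to 43.9%) in members with one, whose interval includes the 35.8% of shared peaks. Among all strong replicate 1 peaks, the share stood between 34.2% and 40.0% in each of the 5 ranges of replicate 2 rank. The rule split members from shared peaks by replicate 2 rank, but it used no annotation. In the mirrored set the promoter share was 75 of 230 (32.6%, 26.6 to 39.1%) in peaks with no replicate 1 peak and 70 of 370 (18.9%, 15.1 to 23.3%) in peaks with one.

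**Figure D3:**
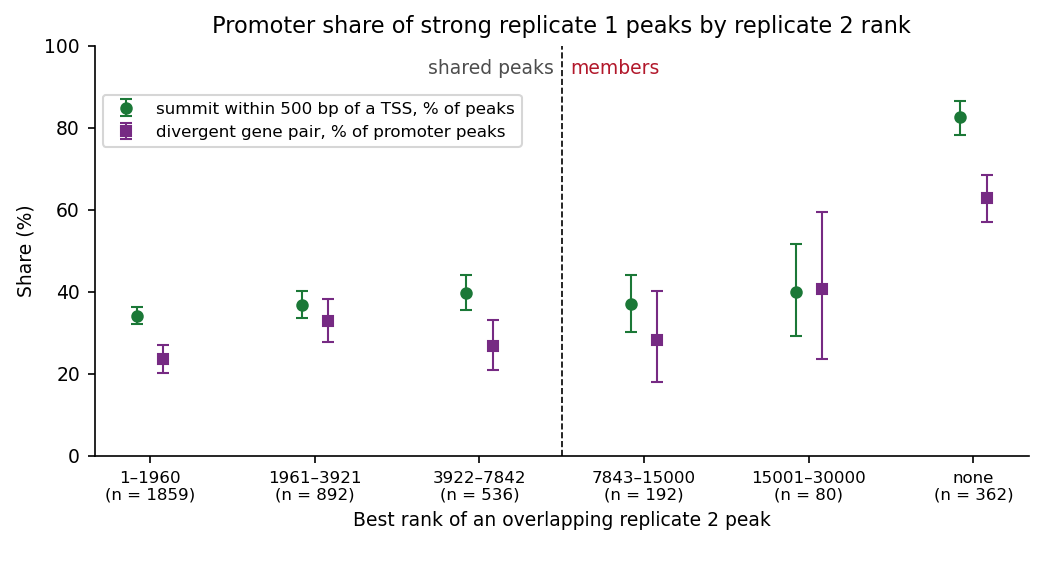
Strong replicate 1 peaks grouped by the best rank of an overlapping replicate 2 peak, with the share of summits at promoters (circles) and the share of promoter summits with a divergent gene pair (squares), in percent with exact 95% intervals; members are right of the dashed line. Both shares are highest where no replicate 2 peak overlaps, at 82.6% and 62.9%.

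Members and shared peaks differed in signal, so the shares were also compared within ranges of replicate 1 rank. In the upper ranks the promoter share was 82.8% (75.6 to 88.5%) in 145 members and 40.4% (38.2 to 42.7%) in 1815 shared peaks. In the lower ranks it was 57.7% (53.2 to 62.1%) in 489 members and 30.2% (27.8 to 32.6%) in 1472 shared peaks. In the 4 finer ranges the intervals of the 2 sets did not overlap either. On each arm except the small arm 4, the member share was at least 57.8%, on X, and the shared share at most 37.7%, on 2L and 2R.

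**Figure D4:**
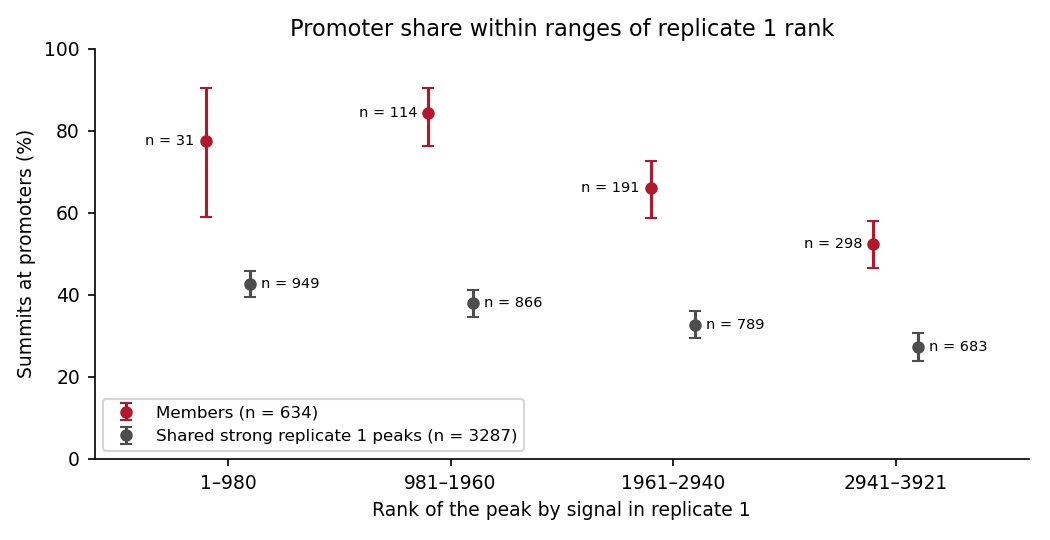
Share of summits at promoters, in percent with exact 95% intervals, for members and shared peaks in 4 ranges of replicate 1 rank. In each range the members lie above the shared peaks, with 84.2% against 38% in the second range and 52.3% against 27.2% in the weakest.

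Members at promoters sat close upstream of the start site. Their median position was 102 bp upstream (a signed position of -102 bp, 95% interval of the median -115 to -90), against -132 bp in shared and -49 bp in mirrored promoter summits. The share between 50 and 250 bp upstream was 60.2% (55.2 to 65.0%) in members, 47.9% (45.0 to 50.8%) in shared peaks and 29.0% (21.7 to 37.1%) in mirrored peaks. Counted over all summits, 27.3% of members, 11.1% of shared and 11.7% of mirrored peaks lay within 100 bp of a start site. That share was 39.5% in members without a replicate 2 peak and 11.0% in members with one. Shares over all summits also reflect the promoter share of each set. Among promoter summits, those within 100 bp were 173 of 402 in members, 366 of 1178 in shared peaks and 70 of 145 in mirrored peaks.

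**Figure D5:**
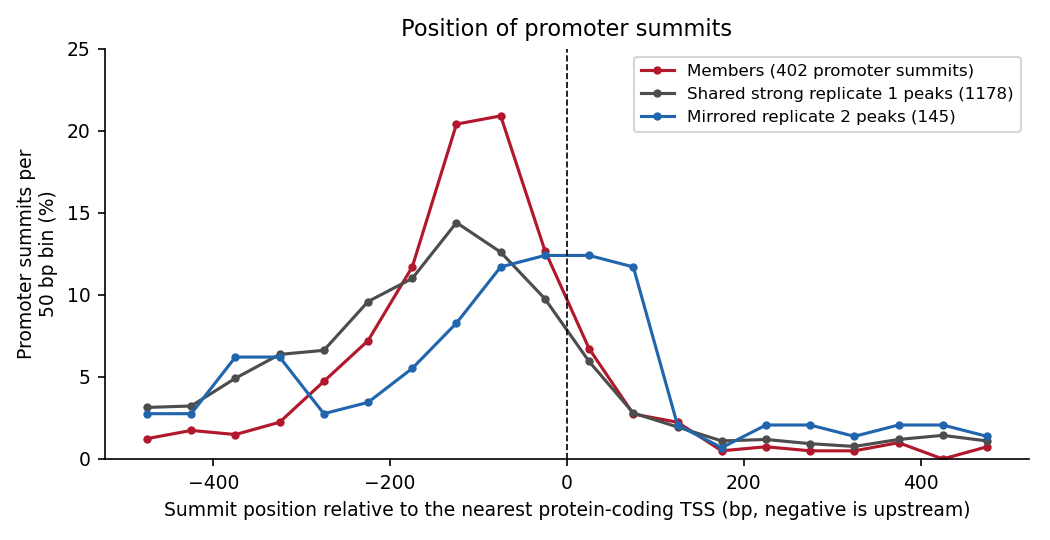
Position of promoter summits relative to the nearest protein-coding start site, as percent of the promoter summits of each set per 50 bp bin; negative values are upstream. The 2 fullest bins of the members, from 150 to 50 bp upstream, hold 20.4% and 20.9% of their summits, against 14.4% and 12.6% in shared and 8.28% and 11.7% in mirrored peaks.

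Many of these promoters served a divergent gene pair, meaning a minus-strand start site to the left of a plus-strand one of another gene, both within 500 bp of the summit. Such a pair was present at 221 of 402 member promoter summits (55%, 50 to 59.9%), at 315 of 1178 shared (26.7%, 24.2 to 29.4%) and at 20 of 145 mirrored promoter summits (13.8%, 8.63 to 20.5%). Centred on every annotated protein-coding start site, the same window held a divergent pair in 21.5% of cases. Those windows were not moved upstream to where member promoter summits lay, so that share is not matched to them in position. The share was 188 of 299 (62.9%, 57.1 to 68.4%) in members without a replicate 2 peak and 33 of 103 (32.0%, 23.2 to 42.0%) in members with one. In the upper ranks it was 60.8% in members and 27.2% in shared peaks, and in the lower ranks 52.5% in members and 25.9% in shared peaks. PIG-G with CG1602, CG7099 with Ing5, PIG-Q with U2af50, tzn with CG3698 and CG2698 with Kmn2 are the divergent pairs among the 12 strongest members.

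Member promoters belonged to 632 of the 13968 protein-coding genes, or 4.52%, while shared peaks reached 1371 genes and mirrored peaks 170. The genes at member promoters were shorter, with a median length of 2967.5 bp (2658 to 3262), against 3777 bp (3406 to 4091) at shared and 5270.5 bp (4093 to 8133) at mirrored promoters. The median over all protein-coding genes was 2164.5 bp. Few genes held more than 1 member: 13 genes had 2 member summits in their body and none had more. By signal the first 5 of these were swm, SREBP, the regulator of lipid synthesis, SNF4Agamma, nej, the histone acetyltransferase CBP, and lncRNA:CR44603. In all 30 members overlapped another member, as at swm, and the 634 members marked 619 separate places. Counted by place, 63.5% were at promoters and 55.5% of those had a divergent pair.

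The gene lists followed general cell functions and developmental functions. Of 478 genes in 11 housekeeping lists, 37 (7.74%, 5.51 to 10.5%) had a member at the promoter, 87 (18.2%) a shared peak and 8 (1.67%) a mirrored peak. Over all protein-coding genes the shares were 4.52% for members, 9.82% for shared and 1.22% for mirrored peaks, so housekeeping genes had a higher share of shared peaks as well as of members. Of 241 genes in 17 lists of developmental signalling, patterning and cell types, 3 (1.24%, 0.257 to 3.59%) had a member, 37 (15.4%, 11.0 to 20.5%) a shared peak and 14 (5.81%, 3.21 to 9.55%) a mirrored peak. The 3 were bgcn, with a replicate 1 signal of 260.6, Hr96, a nuclear receptor of lipid metabolism, with 182.4, and shg, the epithelial cadherin, with 66.32. No gene of the Notch, Enhancer of split, Dpp, Wnt and Hedgehog, EGF receptor, Hox, gap, pair-rule, proneural, neuronal, axon guidance, dpr and DIP, glial or muscle lists had a member at its promoter. Each of these lists was small, and the interval of its member share included the 4.52% of all protein-coding genes.

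Aminoacyl-tRNA synthetases, which load amino acids onto tRNAs, had members at 4 of 32 genes (12.5%, 3.51 to 29.0%) and neither a shared nor a mirrored peak. The interval includes the 4.52% of all protein-coding genes. The replicate 1 signals were 194.5 at ThrRS, 181.5 at SerRS, 178.8 at IleRS and 102.7 at AspRS, and none of the 4 had a replicate 2 peak. Cytosolic ribosomal proteins had shared peaks at 46 of 91 genes (50.5%), against 9.82% of all protein-coding genes. They had members at 10 (11.0%, 5.4 to 19.3%), and that interval lies above the 4.52%. The strongest of these members were at RpS5a (140.0), RpL9 (125.0), RpS15Aa (112.8) and RpL36 (105.3), and of these RpS15Aa alone had a replicate 2 peak, of rank 12009. Elongation factors of translation had no member among 9 genes (0 to 33.6%) and a shared peak at 5, and insulator and architectural proteins had none among 13 (0 to 24.7%) and a shared peak at 6. Both member intervals include the 4.52% of all protein-coding genes.

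Mitochondrial ribosomal proteins had members at 4 of 75 genes, mRpS22 (104.3), mRpL37 (93.05), mRpS24 (80.27) and mRpL11 (77.95), and none of the 4 had a replicate 2 peak. Oxidative phosphorylation had 6 of 89, led by ND-30 of complex I (141.9), ATPsynE of the ATP synthase (121.0), ND-42 of complex I (117.7) and levy of cytochrome c oxidase (98.76). The proteasome had 4 of 48, at the regulatory subunits Rpn5 (133.8), Rpn11 (67.89) and Rpn3 (61.21) and at Prosalpha3 of the core (62.64). Translation initiation factors had 3 of 44, all subunits of eIF3, at eIF3c (112.2), eIF3m (71.10) and eIF3a (63.85). In each of these 4 lists the share with a member was between 5.33% and 8.33%, and its interval included the 4.52% of all protein-coding genes.

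Other lists had few members. Hsc70-5, the mitochondrial Hsp70, was the 1 heat shock gene of 26, with a signal of 224.6. The splicing list of 23 genes had U2af50 (270.6) and Sf3b1 (59.50), and the cell cycle list of 21 had the mitotic kinases aurB (98.16) and aurA (65.80). The replication gene was dpa (123.1), a subunit of the replicative helicase. The Polycomb and trithorax list had 3 of 20 (15%, 3.21 to 37.9%), the Polycomb proteins Su(z)12 (79.61), ph-p (76.89) and Sfmbt (75.49), and the chromatin modifier list had nej (125.2). For each of these 6 lists, from heat shock to chromatin modifiers, the interval of the member share included the 4.52% of all protein-coding genes. Of 290 tRNA genes 1, tRNA:Val-CAC-2-5, was within reach of a member (75.01), and of 269 snoRNA genes 2 were, snoRNA:Psi28S-2949 and snoRNA:Or-aca5, both at the Uhg4 peak. Shared peaks were within reach of 7 tRNA genes (2.41%) and 9 snoRNA genes (3.35%). Long non-coding RNAs had 23 of 3289 genes (0.699%), the strongest being Uhg4 (285.4), asRNA:CR45738 (211.7), lncRNA:CR45168 (163.1) and asRNA:CR45108 (127.0), against 139 (4.23%) with a shared peak. Cuticle protein, odorant receptor, gustatory receptor, ionotropic receptor, replication-dependent histone and snRNA genes had none. Of these, cuticle protein, odorant receptor, ionotropic receptor and histone genes had no shared or mirrored peak either. A shared peak was at 1 of 60 gustatory receptor genes and at 2 of 32 snRNA genes.

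The CG8281 gene itself had no member. Its peak was the first by signal in both replicates.

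Within 100 bp to either side of the summit, members had a median GC content of 35.6% (34.8 to 36.3%), shared peaks 36.8% (36.3 to 37.3%) and mirrored peaks 40.3% (39.3 to 40.8%). The order of members and shared peaks turned round under 2 other settings: 38.3% in members and 37.3% in shared peaks with a replicate 1 list as deep as that of replicate 2, and 39.8% in members and 38.8% in shared peaks when non-overlapping peaks were taken up to the size of the strong list. At promoter summits alone the medians were 34.3% (33.3 to 35.3%) in members and 34.8% (34.3 to 35.3%) in shared peaks, with overlapping intervals, and 40.3% in mirrored peaks. The A/T-rich summit was local: windows 1000 bp to either side of the members had 45% GC when all were pooled, against 36.5% at the summits. Pooled in the same way, shared summits had 37.8%, and windows 102 bp upstream of all protein-coding start sites had 39.6%. Windows to either side were read for members only, so the drop is not shown to be particular to them.

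Members held a 4-base repeat less often than shared peaks did, the one in capitals in the shared CG10479 and CG43169 windows. Words of 8 bases were compared on 2L and 3L, and the 10 with the largest difference were read again on 3R, X and 4, which had no part in choosing them. The words AGTCAGTC, CTGACTGA and GTCAGTCA, which are 3 frames of one repeat and overlap one another, were lower in members. On 3R, X and 4, AGTCAGTC was found at 2 of 279 member summits (0.717%) and at 90 of 1387 shared summits (6.49%), searching both strands. Any of the 4 frames, the fourth being ACTGACTG, was present in 0.717% of members (0.0869 to 2.57%), 8.44% of shared peaks (7.03 to 10%) and 4.37% of mirrored peaks (2.02 to 8.13%). The same windows placed 102 bp upstream of all annotated protein-coding start sites on these arms held it in 1.94%. The member interval includes that share and overlaps the mirrored interval, while the shared interval lies above it.

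At promoters of 3R, X and 4 the repeat was in 0 of 171 member windows (0 to 2.13%) and 14 of 463 shared windows (3.02%, 1.66 to 5.02%), so the intervals overlap there. Outside promoters it was in 2 of 108 member windows (1.85%, 0.225 to 6.53%) and 103 of 924 shared windows (11.1%, 9.19 to 13.4%). The repeat was commoner in stronger shared peaks, at 11.1% in the upper ranks. In the lower ranks it was at 0.901% of member summits (0.109 to 3.22%) and 4.96% of shared summits (3.37 to 7.0%).

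The other 7 of the 10 words were runs of A and T and were higher in members on 2L and 3L. On the arms not used to choose them the difference was smaller for each of the 7: TAAAATAA was at 12.9% of member and 7.5% of shared summits, AAAAAAAT at 14.3% and 10.9%, and AAAATAAA at 12.5% and 11.8%.

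Of 23 known motifs, searched on both strands, 14 were commoner in members than in shared peaks. That count holds letters contained in one another and small differences, such as 13.4% against 12.8% for AAAAAAAA, so it is a description only. The TATAAA letters of the TATA box were in 36.3% of members (32.5 to 40.2%), 31.4% of shared (29.8 to 33.0%) and 23.2% of mirrored windows (19.8 to 26.8%). At promoters they were in 39.8% (35.0 to 44.8%) of member and 37.2% (34.4 to 40.0%) of shared windows, and in 33.6% of windows at the same position of all promoters. TATCGA, the core bound by BEAF-32, a boundary protein, was in 14% of members (11.4 to 17.0%) and 9.13% of shared windows (8.16 to 10.2%). At promoters alone it was in 17.9% of member, 15.1% of shared and 20.0% of all promoter windows. TATCGATA, the DNA replication-related element, which contains TATCGA, was at 5.47% of member, 4.75% of shared and 6.12% of all promoters. Among promoters the intervals of members and shared peaks overlapped for all 3 of these motifs, and over all summits they overlapped for TATAAA and TATCGATA.

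GAGAG, the letters bound by the GAGA factor, was scarcer in members, in 18.0% (15.1 to 21.2%), 23.7% of shared (22.2 to 25.2%) and 27.5% of mirrored windows (24.0 to 31.3%). At promoters it was in 16.4% of member windows (12.9 to 20.4%), 23.6% of shared (21.2 to 26.1%) and 25.3% of all promoter windows. The longer GAGAGAG, which contains GAGAG, was in 4 of 402 member promoter windows (0.995%, 0.272 to 2.53%), 60 of 1178 shared (5.09%, 3.91 to 6.51%) and 6.20% of all promoter windows. Outside promoters the intervals of members and shared peaks overlapped for both. There GAGAG was in 20.7% of member (15.7 to 26.5%) and 23.7% of shared windows (21.9 to 25.6%). GAGAGAG was in 5.17% of member (2.7 to 8.86%) and 4.17% of shared windows (3.36 to 5.12%) outside promoters. Over all summits but within 50 bp only, GAGAG was in 8.52% of members (6.46 to 11.0%) and 10.3% of shared peaks. GAGAGAG was in 0.789% (0.257 to 1.83%) and 1.49%. Both member intervals include the shared value at that window. CACACACA was in 3.79% of members, 3.83% of shared and 9.67% of mirrored windows.

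The arms held members and mirrored peaks in unequal shares. The X carried 102 members (16.1%, 13.3 to 19.2%), 19.4% of shared peaks (18.1 to 20.8%) and 47 mirrored peaks (7.83%, 5.81 to 10.3%). Arm 2L carried 16.1% of members (13.3 to 19.2%), 19.0% of shared peaks (17.7 to 20.4%) and 24.8% of mirrored peaks (21.4 to 28.5%). On both arms the member and shared intervals overlap, and the mirrored interval lies apart from them. 3R carried 27.3% of members (23.9 to 30.9%), 22.5% of shared peaks (21.1 to 24.0%) and 25.5% of mirrored peaks (22.1 to 29.2%), with overlapping intervals. The distance to strong peaks of the other replicate is bounded by the choice itself and is given as a description. For members, the median distance to the nearest strong replicate 2 summit used by the rule was 6124 bp, and 13.7% lay within 1000 bp of one. For the mirrored peaks the median distance to the nearest strong replicate 1 summit was 2649 bp, with 23.7% within 1000 bp.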

How the data were processed

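Chromatin immunoprecipitation of CG8281-GFP was sequenced by the authors in 2 biological replicates of 1 group, assigned from the replicate numbers in the labels, with chromatin sonicated to 200 to 800 bp. The deposited lists are narrowPeak tables on dm6. Per the deposited file descriptions, each replicate list was called on its own alignment and the pooled list on both. No name of an aligner or peak caller, and no cut-off, is given in the sources used here. The authors' signal value per peak has no stated scaling, so signals were ranked within a list. Also deposited were the −log10 q value, used as a description, and the other column used, the summit offset in bases. Lists of a fixed 30000 rows limit what absence from a list says.

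Members were those of the 3921 strongest replicate 1 peaks that shared no base with the 7842 strongest of replicate 2. The upper ranks are 1 to 1960 and the lower ranks 1961 to 3921. Summits were annotated with Ensembl release 115, with a promoter (500 bp) taking precedence over exon parts, exons over introns and introns over intergenic sequence, and sequences came from RefSeq dm6. Motifs and words were searched within 100 bp of the summit. Software was SciPy 1.17.1, pandas 2.3.3, NumPy 2.4.6 and, for plots, Matplotlib 3.10.9 under Python 3.11.15. Overlap and interval code was tested on simulated data.

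The members, motifs and gene lists were chosen with earlier results of these data known, and 1 wrongly placed symbol was removed from the splicing list after its value was seen. Listed symbols with no match in the annotation were left out. The rule for named genes took the 12 strongest members, the 8 strongest without a replicate 2 peak, the peaks next to each threshold, up to 4 genes per list, the 5 genes with most members, and CG8281. The genes of CG3792 and tara come from the rule for sequences, and those of the 3 coding summits were named after their values were seen. Alternatives changed list depths, overlap, duplicate intervals, the reading of the rule, promoter and motif windows, and start sites, and others were added later.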

Additional observations from a re-analysis of the deposited data

How the results depend on the processing

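Of 73 alternative values, 25 stayed close to the reported ones, within their interval or 1.5 times a count, and 48 moved beyond it. Alternatives that change the rule describe other sets of peaks by construction. Otherwise the cause was not tested. With the replicate 2 list cut at the same rank as the replicate 1 list there were 1170 members, of which 52.6% were at promoters, 31.1% in introns, 69.1% with a replicate 2 peak and 50.4% in the optimal list. With the 15000 strongest the promoter share was 74.9%, the intron share 15.4% and the share with a replicate 2 peak 18.1%. With no overlap allowed with any of the 30000, the promoter share was 82.6%, introns 11.3%, the optimal list 40.9% and median GC 34.3%. With the upper ranks of replicate 1 only there were 145 members, with 82.8% at promoters, 0.0% in coding sequence, 9.66% in introns, 15.2% with a replicate 2 peak, 71.7% in the optimal list and 34.3% GC. With the replicate 1 list cut as deep as that of replicate 2 there were 2765, with 40.3% at promoters, 2.21% in coding sequence, 36.3% in introns, 55.9% with a replicate 2 peak, 9.08% in the optimal list and 38.3% GC. When a replicate 2 peak had to cover at least 50% of the replicate 1 peak there were 1196, with 47.2% at promoters, 34.1% in introns, 69.7% with a replicate 2 peak and 61.0% in the optimal list. By summits within 200 bp the share with a replicate 2 peak was 50.5% and that in the optimal list 37.4%. Read as taking the strongest non-overlapping replicate 1 peaks up to the size of the strong list, the number of members is set by the rule and gives no value, and there were 35.0% at promoters, 3.55% in coding sequence, 38.5% in introns, 54.5% with a replicate 2 peak, 6.48% in the optimal list and 39.8% GC. The promoter share was 54.4% within 250 bp, 71.3% within 1000 bp and 56.2% with the outermost start site of each gene only. In all 12 alternatives it stayed above that of the shared peaks, which ran from 25.2% to 45.7%. Median GC turned round: with the deeper replicate 1 list members had 38.3% against 37.3% in shared peaks, and under the last reading 39.8% against 38.8%.

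Of the settings chosen after seeing the data, the divergent share was 38.3% with a window of 250 bp (15.3% in shared peaks), 60.4% with 1000 bp (33.1%), 62.9% without a replicate 2 peak, 60.8% in the upper ranks and 37.7% with the deeper replicate 1 list (24.4%). The repeat was in 0.0% of member promoter windows (3.02% in shared peaks), as given above. Within 50 bp of the summit 13 of 23 motifs were commoner in members, and 3 turned direction, namely the M1BP, CREB and Trl-CG letters. No paired analysis was possible because the replicates form 1 group. Leaving out a replicate was not run, since the rule needs both lists. Read depth, signal scaling and 30000-row lists limit what a missing peak shows.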
